A study of Mus musculus with 63 samples.

Results

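The 9 hepatocyte transcription factors Hnf4a, Foxa1, Foxa2, Foxa3, Cebpa, Cebpb, Onecut1, Prox1 and Nr5a2 were followed by day in livers of mice bred to lose Hcfc1 from hepatocytes, to see which of them kept their level as genes of hepatocyte function fell. They are a set of known liver regulators, found in the files by gene symbol, and all 9 were among the 15616 genes of the deposited table and passed the filter on low values. The series holds 63 libraries of poly(A) RNA, each from 1 liver of a mouse aged 10 to 14 weeks. KO males (26 libraries, Hcfc1hepKO/Y) carried Alb-Cre-ERT2, in which the albumin promoter drives a tamoxifen-inducible Cre in hepatocytes, with Hcfc1 lox/Y. Het females (12 libraries, Hcfc1hepKO/+) carried that Cre with Hcfc1 lox/+. WT males (25 libraries) are given in the protocol as Hcfc1 lox/Y mice with no Cre, while their genotype label gives C57BL/6. The protocol gives 1 mg tamoxifen on each of 3 days, from day 0 to day 2, for all mice, WT included, so the schedule is shared by the groups, and an effect of Cre and one of Hcfc1 loss cannot be told apart. Livers were taken on days 0 to 14. Those of days 0 and 1 were thus taken before the course was complete, and the labels do not say whether day 0 livers had received an injection. Males had 2 libraries per genotype on days 0 to 9 and 1 on days 10 to 14, apart from 2 KO libraries on day 14, of which 1 carries no replicate number. Females had 1 library on each of 12 days, and WT females were not analysed here.

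Hepatocyte identity is held by a small set of transcription factors that bind each other's genes as well as the promoters and enhancers of liver genes. HNF4A and NR5A2 are nuclear receptors, C/EBPα and C/EBPβ are leucine zipper proteins, the FOXA proteins open closed chromatin at liver enhancers, ONECUT1 (HNF6) is a cut-homeodomain protein and PROX1 a homeodomain protein that can act as a corepressor of HNF4A and NR5A2. HCF-1, made from Hcfc1, links transcription factors on DNA with enzymes that modify histones.

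The sequences before the start sites of 4 of the factors are given because of the patterns described below. Cebpa, Foxa3 and Prox1 differed between KO and WT livers in some windows, and Onecut1 varied most between livers. They are mouse RefSeq sequences (build GRCm38.p6), each the 250 bases that end just before the start site, and each matched mm9 (NCBIM37) at 1 place. Cebpa lies at chr7:35904062-35904311 on the plus strand, Foxa3 at chr7:19608889-19609138 on the minus strand, Prox1 at chr1:191994707-191994956 on the minus strand and Onecut1 at chr9:74709478-74709727 on the plus strand. Capitals mark matches on either strand to 12 short motifs.
Cebpa: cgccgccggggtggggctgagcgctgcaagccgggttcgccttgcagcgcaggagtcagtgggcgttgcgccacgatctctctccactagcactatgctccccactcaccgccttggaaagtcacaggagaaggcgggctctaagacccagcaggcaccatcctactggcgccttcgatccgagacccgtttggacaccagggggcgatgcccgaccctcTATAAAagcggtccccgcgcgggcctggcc
Foxa3: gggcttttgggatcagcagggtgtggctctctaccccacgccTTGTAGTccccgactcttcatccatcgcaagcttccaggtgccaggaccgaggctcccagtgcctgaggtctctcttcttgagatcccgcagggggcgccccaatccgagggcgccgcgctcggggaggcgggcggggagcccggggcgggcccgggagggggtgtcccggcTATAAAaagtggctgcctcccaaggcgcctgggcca
Prox1: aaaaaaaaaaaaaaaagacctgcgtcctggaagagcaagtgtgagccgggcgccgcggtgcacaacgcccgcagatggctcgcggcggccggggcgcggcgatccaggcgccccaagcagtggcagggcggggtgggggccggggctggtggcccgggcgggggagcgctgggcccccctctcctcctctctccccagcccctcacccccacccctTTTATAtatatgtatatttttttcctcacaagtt
Onecut1: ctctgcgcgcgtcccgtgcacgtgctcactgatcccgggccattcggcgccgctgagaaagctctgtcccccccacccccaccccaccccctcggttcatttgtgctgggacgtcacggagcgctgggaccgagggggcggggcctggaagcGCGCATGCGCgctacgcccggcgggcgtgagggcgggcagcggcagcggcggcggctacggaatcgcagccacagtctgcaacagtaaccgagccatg

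The capitals in Cebpa, Foxa3 and Prox1 include the TATA box motif TATAAA, 30, 36 and 34 bases before the start, in Prox1 on the other strand, and 12.4% of all 32851 RefSeq mouse promoter windows of this length hold it. In Foxa3 the capitals also mark ACTACAA, read on the other strand, the core bound by THAP11 and ZNF143, which 2.81% of windows hold. The Onecut1 window holds the palindromic NRF1 motif, which 3.74% of windows hold. The other motifs searched were TGTTTAC and TGTTTGC (FOXA), ATTGAT and ATCGAT (ONECUT), TTGCNNAA (C/EBP), CAAGGTCA (NR5A2), CAAAGTCCA (HNF4A), CCGGAAG (GABP) and AAGATGGC (YY1), none of which matched in these 4 windows and each of which 0.384% to 9.56% of all windows hold. Prox1 has another RefSeq start, not printed here, whose window (chr1:191993395-191993644) holds TGTTTGC, as do 4.3% of all windows. A match is a description of the letters in this window and no measure of binding.

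In the mm9 annotation (GENCODE for NCBIM37) the genes span chr2:163332544-163398646 (Hnf4a, plus strand), chr1:138740161-138857004 (Nr5a2, minus), chr7:35904312-35906945 (Cebpa, plus, 1 exon), chr2:167514415-167515918 (Cebpb, plus, 1 exon), chr12:58641618-58647108 (Foxa1, minus), chr2:147868613-147872705 (Foxa2, minus), chr7:19598631-19608887 (Foxa3, minus), chr9:74709728-74737591 (Onecut1, plus) and chr1:191945660-191994559 (Prox1, minus).

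Depth, estimated as gene reads, was 23.5M to 62.0M in KO males, 27.0M to 51.4M in Het females and 19.8M to 58.9M in WT males. The hepatocyte markers Ttr, Apoa1, Apob, Cps1 and Cyp2e1 were each at 243 RPKM or more in every library. Alb, the sixth marker, was not read as a sign of cell identity, since it spanned 990 to 42693 RPKM across KO libraries and 4598 to 53039 RPKM across Het libraries, against 14379 to 71644 RPKM in WT libraries. RPKM scales the reads of a gene to its exon length and to the library's size. Hcfc1 RNA, which was to be deleted, was not lower in KO males: on days 10 to 14 it held 21.6 to 47.8 RPKM in KO livers, against 5.96 to 9.87 RPKM in WT livers, and it rose by 1.88 ± 0.17 (log2, ± standard error) and by 1.11 ± 0.12 relative to the median gene. The table gives 1 value per gene and not per exon, so this checks no label. Over all tested genes the median KO minus WT difference was 0.09, 0.23, 0.33, 0.23 and 0.85 (log2, deposited values) on day 0 and days 1 to 2, 3 to 5, 6 to 9 and 10 to 14, and the KO livers of days 13 and 14 stood apart in the level of their median gene. Each difference is therefore given in the deposited values first and then relative to the median gene of each library. The words rose and fell are used where the adjusted p was under 0.05 with 1 sign on both scales. Between genotypes, rose means higher in KO than in WT livers of the same days, not a rise since day 0. Fell means lower in the same way. A gene kept its level where its whole 95% confidence interval lay within a factor of 2 of WT on both, so a small rise can also be a kept level. Where groups are said not to overlap, or 1 to lie above the other, this describes their values only. The share of all tested genes that part in this way was not counted. Fewer hepatocytes and less RNA per hepatocyte cannot be told apart in whole liver.

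Levels per length put Hnf4a first in each genotype. It averaged 159 ± 32.6 RPKM in KO males (SD, n = 26), 189 ± 28.6 RPKM in Het females (n = 12) and 129 ± 23.2 RPKM in WT males (n = 25). Cebpa came next at 87.3 ± 29.2 RPKM in KO males, 113 ± 31.4 RPKM in Het females and 73.9 ± 9.88 RPKM in WT males. These genes stood apart from each other and from the next gene by more than the sum of their SDs. In WT males Cebpb (25.3 ± 9.32 RPKM), Foxa3 (17.2 ± 4.71), Prox1 (13.2 ± 4.45), Nr5a2 (12.6 ± 2.45), Foxa2 (11.6 ± 3.04), Onecut1 (5.78 ± 5.64) and Foxa1 (5.08 ± 1.41) followed, and no gene after Cebpa differed from the next by more than the sum of their SDs. In KO males the order after Cebpa was Cebpb (35.9 ± 12.3 RPKM), Foxa3 (33.2 ± 7.17), Prox1 (22.8 ± 7.04), Nr5a2 (15.1 ± 3.09), Foxa2 (12.6 ± 4.16), Onecut1 (5.63 ± 3.69) and Foxa1 (5.50 ± 2.70). In Het females it was Foxa3 (31.4 ± 12.5 RPKM), Cebpb (28.7 ± 9.12), Prox1 (23.0 ± 6.72), Nr5a2 (18.9 ± 2.68), Foxa2 (15.1 ± 3.22), Foxa1 (5.19 ± 1.28) and Onecut1 (5.14 ± 2.95). Neighbours in these rows also lay within the sum of their SDs, except Foxa2 and Foxa1 in Het females. The lowest depth behind any of these values was an estimated 47.7 reads, for Onecut1 in 1 WT liver of day 0, and at least 266 reads for every other factor.

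**Figure D1:**
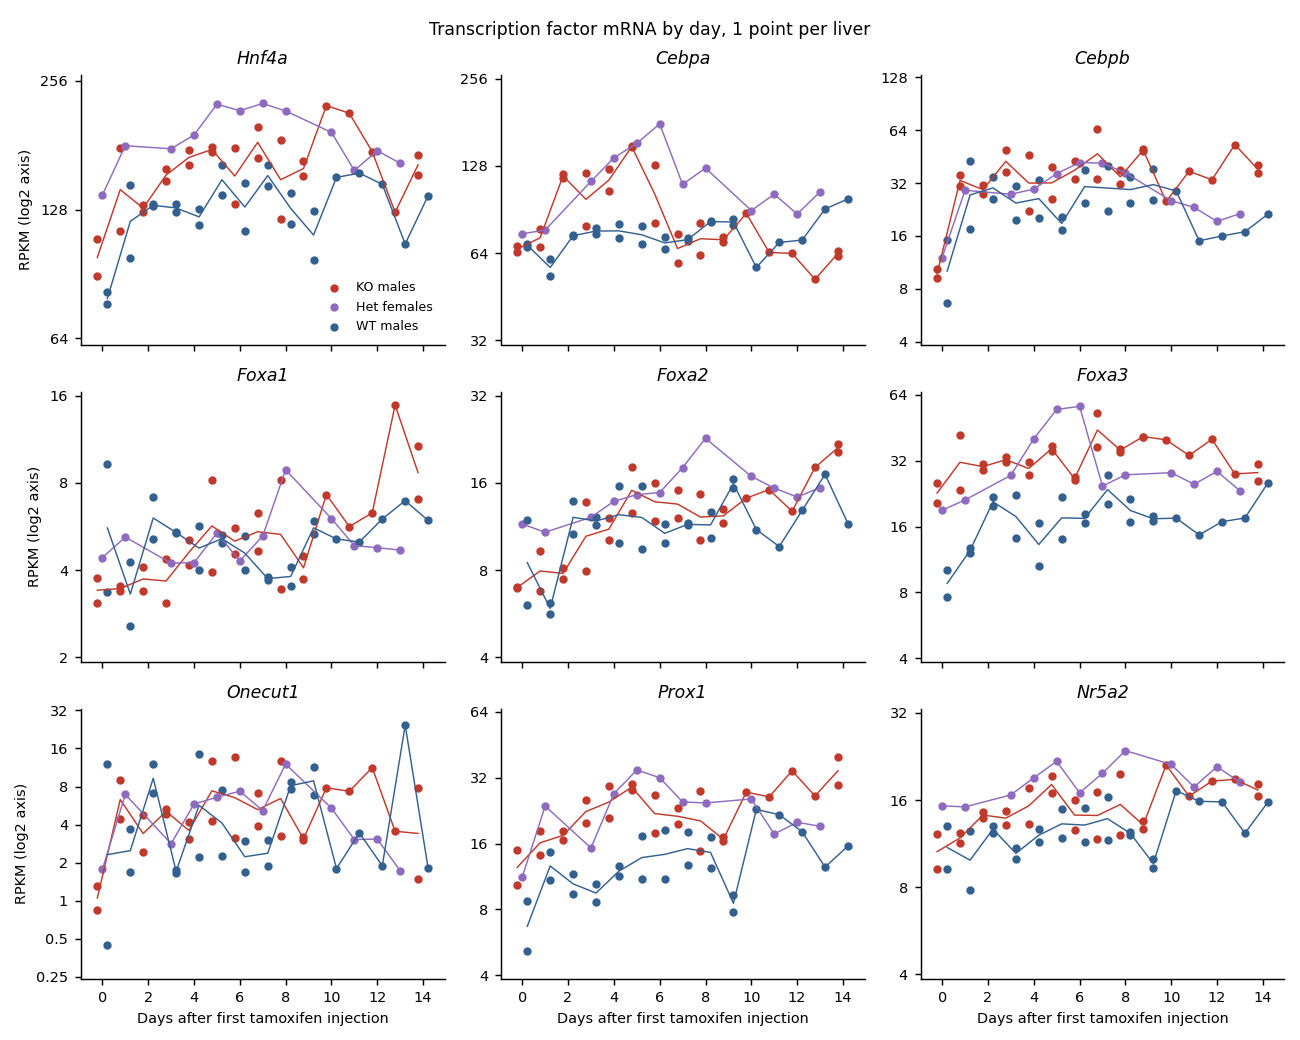
RPKM of the 9 factors by day after the first tamoxifen injection, on log2 axes, with 1 point per liver and lines through the daily geometric means of KO males, Het females and WT males. Foxa3 and Prox1 of KO males run above WT males on every day, Cebpa of KO males reaches 150 RPKM on day 5 and lies at 51.9 to 65.0 RPKM on days 13 and 14, and Onecut1 scatters over 0.444 to 24.5 RPKM in WT males.

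Hnf4a, the nuclear receptor at the centre of the network, kept its level in KO livers in all 5 windows. On day 0 it stood at 109 and 89.4 RPKM in KO livers, against 81.9 and 76.8 RPKM in WT livers. On days 3 to 5 the lowest, median and highest values were 149, 169 and 179 RPKM in 6 KO livers, against 118, 130 and 163 RPKM in 6 WT livers. On days 10 to 14 they were 126, 173 and 224 RPKM in 6 KO livers, against 152, 156, 147, 106 and 138 RPKM in the WT livers of days 10 to 14 in turn. On day 0 the 2 KO livers lay above the 2 WT livers, a difference that was not called, and the ranges overlapped in both later windows. The late difference was 0.35 ± 0.13 in the deposited values (adjusted p = 0.0145) and -0.42 ± 0.12 relative to the median gene (adjusted p = 0.00304), so that its sign depended on the scale, and it was -0.01 with libraries scaled to equal summed RPKM. Relative to the median gene, the daily difference was 0.27, -0.13 and -0.26 on days 10, 11 and 12 and -1.16 and -0.81 on days 13 and 14.

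Nr5a2 (LRH-1), the nuclear receptor that drives bile acid and cholesterol handling genes, also kept its level in all 5 windows. It held 16.5, 18.4 and 21.1 RPKM (lowest, median, highest) in KO livers of days 10 to 14, against 17.2, 15.8, 15.8, 12.3 and 15.7 RPKM in WT livers of those days. The late difference was 0.27 ± 0.15 in the deposited values (adjusted p = 0.0926) and -0.50 ± 0.09 relative to the median gene (adjusted p = 3.74e-05). Nr5a2 is also made in exocrine pancreas, and 3 other pancreas genes of the table were at or near 0, with a sum of at most 0.087 RPKM in any KO liver of that window.

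Cebpa, which sustains genes of hepatocyte metabolism, rose early and then lost its lead. On day 0 it was at 67.5 and 64.7 RPKM in KO livers, against 67.4 and 68.9 RPKM in WT livers. On day 2 it was at 116 and 121 RPKM in KO livers, against 73.3 and 73.7 RPKM in WT livers. On day 5 it was at 149 and 150 RPKM in KO livers, against 68.9 and 79.5 RPKM in WT livers. In RPKM the KO livers lay above the WT livers of the same day on each of days 1 to 5. Relative to the median gene, the mean daily difference was 0.01, 0.64, 0.13, 0.22 and 0.75 on these days in turn. Over days 1 to 2 and over days 3 to 5 the groups overlapped on both scales. Over days 3 to 5 the gene rose by 0.65 ± 0.10 in the deposited values (adjusted p = 7.62e-06 in limma) and 0.37 ± 0.09 relative to the median gene (adjusted p = 0.00157), and this also met the bounds for a kept level. A mark in the deposited sample names, B_1 or B_2, splits the libraries, and the rise was 0.66 within B_1 and 0.64 within B_2, neither of which passed alone on both scales. The rise of days 1 to 2, 0.51 ± 0.13 and 0.32 ± 0.11, passed narrowly (adjusted p = 0.00653 and 0.0476) and was lost with any 1 of its 8 libraries left out.

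Over days 6 to 9 and over days 10 to 14, Cebpa was not called as higher in KO livers. On days 6 to 9 the difference was 0.02 ± 0.09 and -0.15 ± 0.08, within the bounds for a kept level. By day, Cebpa was still higher on day 6, by 0.56 in the deposited values and 0.50 relative to the median gene. On days 7, 8 and 9 the differences were -0.10, -0.20 and -0.20, and -0.18, -0.42 and -0.51 relative to the median gene. On day 10, with 1 liver per genotype, Cebpa was again higher (0.62 and 0.33). On days 10 to 14 the values were 87.8, 64.3, 63.8 and 51.9 RPKM in the KO livers of days 10 to 13, and 65.0 and 62.7 RPKM on day 14, against 57.1, 69.6, 71.0, 90.9 and 98.5 RPKM in WT livers of days 10 to 14 in turn. The groups overlapped, with the KO livers of days 13 and 14 below the WT livers of those days. The late difference was -0.22 ± 0.11 in the deposited values (adjusted p = 0.0702) and -0.99 ± 0.10 relative to the median gene (adjusted p = 1.78e-09), so it was not called. Without the day 10 liver of either genotype it was -0.43 and called, and without the day 13 liver of either it was -0.07. On days 13 and 14 alone, a choice made after seeing the data, it was -0.72 and called (adjusted p = 0.000318). The change of the difference between days 3 to 5 and days 10 to 14 was tested itself, and it fell by 0.87 ± 0.15 in the deposited values and 1.35 ± 0.13 relative to the median gene (adjusted p = 2.36e-05 and 6.10e-09), against 38.8% of all 12221 tested genes called in either direction, 28.1% that rose and 10.6% that fell. With days 10 to 12 alone as the late window it was -0.54 in the deposited values (adjusted p = 0.0248).

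Cebpb, the stress- and cytokine-responsive partner of Cebpa, was not called in any window and kept its level on days 1 to 2 and days 6 to 9. It was at 9.18 and 10.4 RPKM in KO livers on day 0, against 6.67 and 15.2 RPKM in WT livers. From day 1 on, every male liver held more than the lower liver of day 0 of its genotype, and Het livers showed 12.1 RPKM on day 0 and 29.1 RPKM on day 1. On days 3 to 5 the difference was 0.62 ± 0.24 (adjusted p = 0.0304) in the deposited values and 0.33 ± 0.29 relative to the median gene (adjusted p = 0.362). In the last window it was 0.93 ± 0.26 (adjusted p = 0.00159) and 0.16 ± 0.31 (adjusted p = 0.652). Cebpb shares part of its span with Tmem189 on the opposite strand. The library kit marks strand, but whether the counting used it is not given in the sources used here.

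Among the FOXA genes, Foxa3 stood out. At the start, on day 0, it was at 25.3 and 20.5 RPKM in KO livers, against 7.62 and 10.1 RPKM in WT livers. That difference of 1.37 ± 0.25 (adjusted p = 0.0183) was 1.28 ± 0.27 relative to the median gene (adjusted p = 0.0667), and so was not called on both scales. On days 3 to 5 the lowest, median and highest values were 27.6, 32.3 and 37.2 RPKM in KO livers, against 10.6, 15.4 and 22.2 RPKM in WT livers. The groups did not overlap on day 0, days 1 to 2 or days 3 to 5 on either scale, nor on days 10 to 14 in RPKM. By daily means, KO was higher on 15 of 15 days in the deposited values and on 13 of 15 days relative to the median gene. The exceptions were days 13 and 14, at -0.74 and -0.89. In the deposited values Prox1 was also higher in KO livers on 15 of 15 days, and Hnf4a and Nr5a2 were on 14 of 15. The share of all tested genes higher on as many days was not counted.

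The day 0 difference of Foxa3, 1.37 and 1.28 relative to the median gene, was larger than those of the later windows. Whether the difference changed after day 0 was not tested. Compared with WT livers, Foxa3 rose on days 1 to 2 by 0.94 ± 0.18 and 0.75 ± 0.19, on days 3 to 5 by 1.02 ± 0.14 and 0.73 ± 0.16 and on days 6 to 9 by 0.92 ± 0.13 and 0.75 ± 0.14 (adjusted p = 0.00979, 0.000382 and 3.33e-05 relative to the median gene). The first of these was lost without the day 1 replicate 1 library of either genotype. Within the B_1 libraries it was 1.79 (1 per genotype) and within the B_2 libraries 0.65 (3 per genotype), and neither passed. On days 3 to 5 it was 1.16 within B_1, which did not pass on both scales, and 0.88 within B_2, which did. On days 6 to 9 the rise was 0.90 within B_1 (3 libraries per genotype) and 0.93 within B_2 (5 per genotype), with both scales passing in B_2 only. Over days 10 to 14 the difference was 0.89 ± 0.15 in the deposited values and 0.12 ± 0.17 relative to the median gene, and it was called on days 10 to 12 alone (1.22, adjusted p = 1.49e-05 in the deposited values). In KO males Foxa3 stood 0.56 ± 0.21 higher on days 10 to 14 than on day 0 in the deposited values and 0.87 ± 0.22 lower relative to the median gene.

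Foxa2, which opens liver enhancers and is shared with duct cells, kept its level in every window, and Foxa1, its close relative, did so on days 3 to 5, 6 to 9 and 10 to 14. Foxa2 held 12.8, 16.6 and 21.9 RPKM (lowest, median, highest) in late KO livers, against 11.0, 9.65, 12.9, 17.1 and 11.6 RPKM in late WT livers. Foxa1 held 5.66, 7.18 and 14.9 RPKM in late KO livers, against 5.12, 5.00, 6.01, 6.95 and 5.94 RPKM in late WT livers. The late difference of Foxa1 was 0.48 ± 0.24 in the deposited values and -0.29 ± 0.22 relative to the median gene. For Foxa2 it was 0.39 ± 0.18 and -0.38 ± 0.18. On days 13 and 14 the daily difference relative to the median gene was -0.31 and -0.50 for Foxa1 and -1.33 and -0.18 for Foxa2. The highest Foxa1 values, 14.9 and 10.7 RPKM, came from KO livers of these 2 days. Beside them, the summed level of the 14 duct cell genes was 129 to 993 RPKM in late KO livers, against 41.5 to 58.0 RPKM in late WT livers, and its part in the level of the FOXA genes was not tested.

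Onecut1, a regulator of hepatocyte and duct differentiation and of glucose genes, met neither the rule for a kept level nor that for a rise or fall in any window, and livers of 1 genotype and day differed widely. On day 0 it was at 0.842 and 1.31 RPKM in KO livers, against 0.444 and 12.0 RPKM in WT livers. The highest value of all, 24.5 RPKM, came from the WT liver of day 13, where the KO liver had 3.54 RPKM. Over all WT livers the highest value was 55.3 times the lowest, against 2.12 times for Hnf4a and 1.85 times for Cebpa. Over the 20 pairs of livers of 1 male genotype and day, the replicate SD was 1.13 (log2), higher than that of 97.4% of tested genes and of 99.8% of those of like level, while it was 0.18 for Hnf4a and 0.15 for Cebpa and Nr5a2. The table also lists Gm16551, which overlaps Onecut1 on the same strand, so reads of both could be split. The late difference was 0.78 ± 0.64 in the deposited values and 0.01 ± 0.66 relative to the median gene, with a 95% interval from -1.34 to 1.37 relative to the median gene.

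Prox1, which restrains HNF4A and NR5A2 targets, stood higher in KO livers from day 0 and was called on days 3 to 5 and 6 to 9. On day 0 it was at 15.02 and 10.33 RPKM in KO livers, against 8.72 and 5.14 RPKM in WT livers. These groups of 2 livers did not overlap on either scale. The difference was 0.89 ± 0.31 in the deposited values and 0.80 ± 0.24 relative to the median gene, and it was not called (adjusted p = 0.684 and 0.263 in limma). On days 3 to 5 it held 19.8, 26.8 and 29.8 RPKM (lowest, median, highest) in KO livers, against 8.65, 11.2 and 17.3 RPKM in WT livers. The groups did not overlap on either scale. The gene rose by 1.12 ± 0.18 in the deposited values and 0.83 ± 0.14 relative to the median gene (adjusted p = 9.08e-06 and 1.89e-05), and it was called within B_1 (1.21) and within B_2 (1.03). On days 6 to 9 it rose by 0.64 ± 0.15 and 0.47 ± 0.12 (adjusted p = 0.000824 and 0.00119), by 0.54 within B_1, where it did not pass, and by 0.70 within B_2, where it did. This rise also met the bounds for a kept level, as did the difference of days 1 to 2 (0.54 ± 0.22 and 0.35 ± 0.17), which was not called. Late KO livers held 26.2 to 39.8 RPKM, against 12.5 to 22.9 RPKM in late WT livers, and the difference was 0.74 ± 0.19 in the deposited values but -0.03 ± 0.15 relative to the median gene. Prox1 also marks lymphatic endothelium, whose 5 other measured genes summed to 11.8 to 16.7 RPKM in KO livers of days 3 to 5, against 11.3 to 16.3 RPKM in WT livers. On days 10 to 14 these genes summed to 29.9 to 73.5 RPKM in KO livers, against 11.5 to 31.3 RPKM in WT livers, and their part in the late level of Prox1 was not tested.

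**Figure D2:**
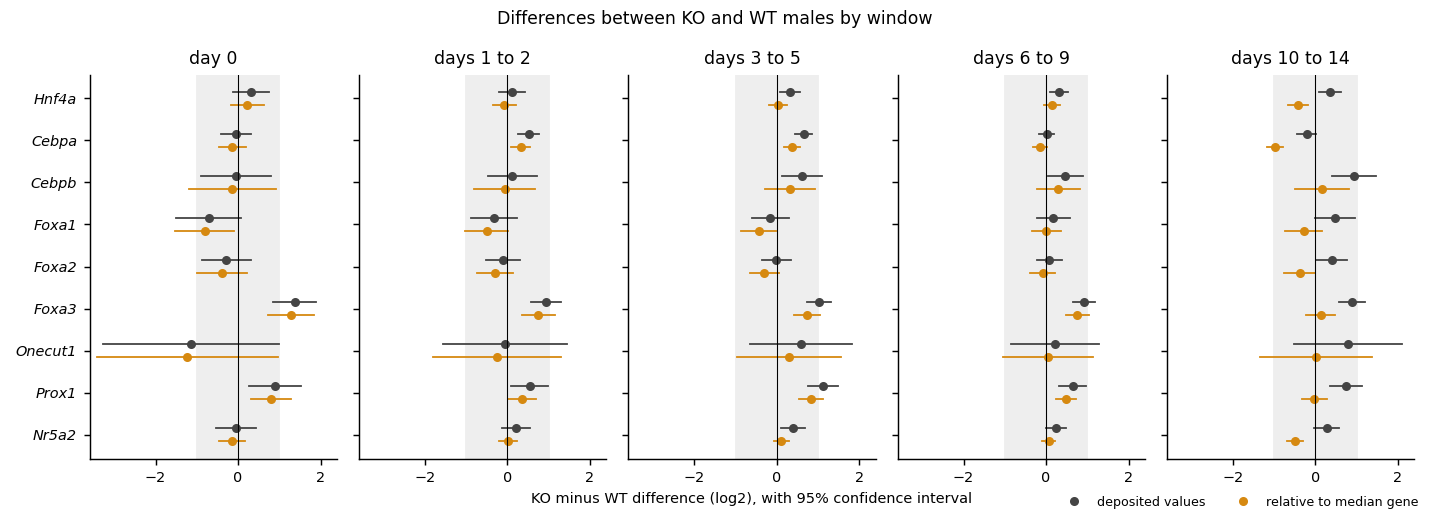
KO minus WT difference of each factor in 5 windows (log2, with the 95% confidence interval of limma), in the deposited values and relative to the median gene of each library; the grey band spans a factor of 2 either way. Foxa3 lies right of 0 on both scales up to days 6 to 9, the Onecut1 intervals reach beyond the band in every window, and on days 10 to 14 the scales part for every factor.

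Counted over the factors, 0 of 9 were called on day 0 (0.0655% of all tested genes called), 2 rose on days 1 to 2 (10.9% called), 3 rose on days 3 to 5 (36.1%), 2 rose on days 6 to 9 (53.9%) and 0 were called on days 10 to 14 (49.6%). At an unadjusted p under 0.05 on both scales with the same sign on both, the limma counts were 2 on day 0 (Foxa3 and Prox1, both higher in KO livers) and 0 on days 10 to 14. They were 0 in the comparisons over time in KO males, in Het females and between them. In the deposited values alone, 542 of 12221 tested genes had such a p on day 0 and 10225 on days 10 to 14. Over time it was 10870 in KO males and 8901 of 11919 in Het females. The share of all tested genes passing on both scales was not counted. With no condition on the sign, Hnf4a and Foxa2 also passed on days 10 to 14, Hnf4a, Foxa3 and Nr5a2 over time in KO males and Nr5a2 in WT males and in Het females, each higher in the deposited values and lower relative to the median gene. By the rule with adjusted p, 0.0327%, 9.05%, 26.5%, 35.1% and 38.6% of all tested genes rose over the 5 windows. No factor fell in any window, against 0.0327%, 1.82%, 9.61%, 18.8% and 11.1% of tested genes. The number that kept their level was 4, 6, 5, 7 and 4 over the 5 windows, against 75.8%, 77.5%, 68.1%, 70.3% and 23.5% of tested genes. The 4 of the last window were Hnf4a, Foxa1, Foxa2 and Nr5a2. On days 13 and 14 alone, 0 factors met the rule. With a factor of 1.5 in place of 2, the counts were 2, 2, 1, 5 and 0, against 33.1%, 36.9%, 25.8%, 34.6% and 0.205% of tested genes.

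The function genes, 119 measured genes for secreted proteins, urea and amino acid catabolism, glucose and glycogen, bile acids and drug metabolism, rose more often than they fell on days 3 to 5 and fell more often than they rose on days 10 to 14. On days 3 to 5, 45 rose and 24 fell, on days 6 to 9, 25 rose and 26 fell, and on days 10 to 14, 15 rose and 55 fell. Of all tested genes, 26.5%, 35.1% and 38.6% rose in these windows, and 9.61%, 18.8% and 11.1% fell. The excess of rises over falls on days 3 to 5 was thus shared with tested genes in general. The 24 of 119 function genes that fell on those days were a larger share than the 9.61% of all tested genes. The median late difference of the function genes was -0.16 in the deposited values and -0.93 relative to the median gene. It was 0.48 and -0.29 for the 9 factors, and 0.53 and -0.24 for 25 other liver transcription factors. For all tested genes it was 0.85 and 0.08. Relative to the median gene, 57 of 119 function genes and 1610 of 12221 tested genes were lower in late KO livers by more than a factor of 2, against 0 of the 9 factors, with Cebpa next to the bound at -0.99.

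The falls of days 10 to 14 were spread unevenly over the functions, beside 11.1% of all tested genes that fell and 38.6% that rose. Of the genes of the urea cycle and amino acid catabolism, 21 of 24 fell, among them Otc, which makes citrulline, with 51.3 ± 32.9 RPKM in KO livers (SD, n = 6) and 175 ± 13.5 RPKM in WT livers (SD, n = 5), and Bhmt, the betaine-homocysteine methyltransferase, by 3.04 ± 0.16. Of the bile acid genes 11 of 16 fell and 3 rose, and Baat, which conjugates bile acids, had 30.2 ± 19.9 RPKM in KO livers and 142 ± 3.10 RPKM in WT livers. Of the glucose and glycogen genes 8 of 13 fell, among them Pck1, by 1.89 ± 0.22. Drug metabolism split evenly, with 8 rises and 8 falls among 28 genes, and Cyp2a5 rose by 5.49 ± 0.31. Of the secreted proteins 4 rose and 7 fell among 38, and F12, the clotting factor XII, rose by 1.19 ± 0.09. Among other liver transcription factors Cebpd, Gata4 and Gata6 were in the group of 4 that rose, while 3 of 25 fell.

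Known targets of the factors were counted in the same way, beside the same 38.6% of all tested genes that rose and 11.1% that fell. Of 20 C/EBP and acute phase targets, 6 rose and 8 fell on days 10 to 14, with Orm3, an acute phase protein, higher by 5.20 ± 0.54 and Crp, C-reactive protein, lower (-2.41 ± 0.16). Of 7 NR5A2 targets, 2 rose and 3 fell, and Cyp8b1, the sterol 12α-hydroxylase, had 57.9 ± 75.9 RPKM in KO livers and 195 ± 49.7 RPKM in WT livers. Each of these lists held genes that rose and genes that fell.

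**Figure D3:**
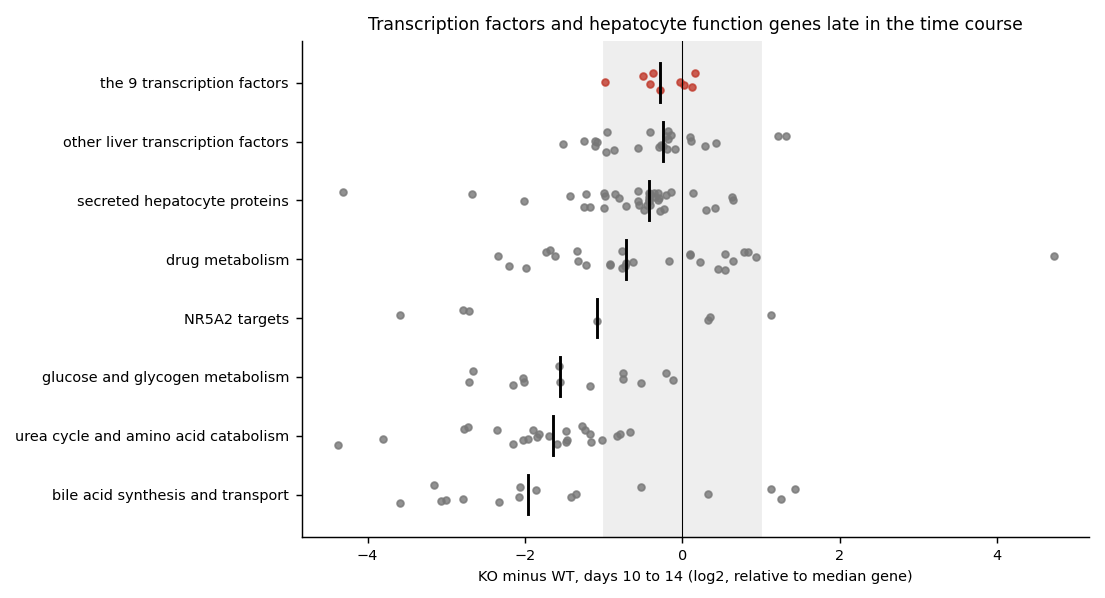
KO minus WT difference on days 10 to 14 relative to the median gene (log2), 1 point per gene, for the 9 factors and 7 lists of other factors, targets and function genes, with a black bar at each median; the grey band spans a factor of 2 either way. The 9 factors lie within the band, with a median of -0.29, and the median of the bile acid genes is -1.96.

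Markers of other cells also differed in the same window, and their part in the levels of the factors was not tested. Of all tested genes, 38.6% rose and 11.1% fell in that window, and the share of endothelial genes that rose was not above this. In late KO livers, 8 of 11 tested duct cell genes, 8 of 13 macrophage genes, 10 of 10 stellate cell and fibroblast genes, 3 of 10 endothelial genes, 3 of 5 lymphatic endothelial genes (a list that includes Prox1) and 5 of 5 fetal liver genes rose, against 0 of 6 neutrophil and 0 of 8 lymphocyte genes, and none of these lists had a gene that fell. Sox9, a duct cell factor, had 9.92 ± 5.84 RPKM in KO livers and 1.04 ± 0.19 RPKM in WT livers. Afp, a fetal liver protein, had 54.3 ± 71.4 RPKM in KO livers and 1.40 ± 0.15 RPKM in WT livers. The macrophage genes summed to 975 to 2185 RPKM in KO livers and 265 to 858 RPKM in WT livers.

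**Figure D4:**
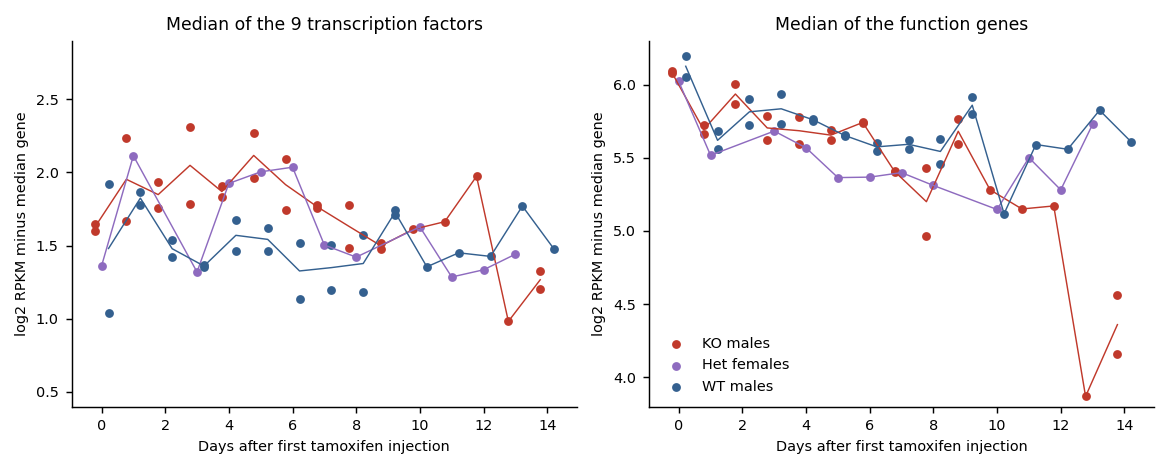
Median of the 9 factors and of 119 function genes in each library, relative to the library's median gene (log2), by day, with lines through daily means of KO males, Het females and WT males; both panels span the same range. The KO livers of days 13 and 14 lie at 3.87 to 4.56 for the function genes, below every other library. For the factors they lie at 0.98 to 1.33, below every other KO library (lowest 1.48). The value of 0.98 is the lowest of any library, and WT libraries span 1.04 to 1.92.

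Within each genotype over time, the scale decided most of the outcome. From day 0 to days 10 to 14, 0 factors were called in KO males (40.5% of tested genes called, 35.6% rose and 4.89% fell), 8 being higher in the deposited values only and 4 lower relative to the median gene only. In WT males 1 factor rose, Prox1, by 1.40 ± 0.26 and 0.65 ± 0.20 (adjusted p = 6.43e-05 and 0.0141; 16.9% of tested genes called, 16% rose and 0.884% fell). It stood at 22.9, 21.7, 18.1, 12.5 and 15.6 RPKM on days 10 to 14, against 8.72 and 5.14 RPKM on day 0, and the call was lost without the second library of day 0 or with days 13 and 14 alone as the late window. Prox1 thus differed over time in mice that received tamoxifen without Cre.

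In Het females, 0 of 9 factors were called between days 0 to 1 and days 10 to 13 (14% of 11919 tested genes called, 13.5% rose and 0.503% fell), and 6 kept their level (43.2% of tested genes): Hnf4a, Foxa1, Foxa2, Cebpa, Cebpb and Nr5a2. Their courses in mid time were high for some factors. Cebpa stood at 113, 137, 153 and 179 RPKM on days 3 to 6, and at 74.6 and 76.8 RPKM on days 0 and 1. Foxa3 stood at 40.3, 54.9 and 56.7 RPKM on days 4 to 6 and at 24.5 RPKM on day 7. With 1 library per day these peaks have no replicate.

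The change in Het females minus the change in KO males over the same days was tested itself, and 0 factors were called (26.5% of 12380 tested genes called, 6.44% rose and 20% fell). For Cebpa it was 0.41 ± 0.21 in the deposited values (adjusted p = 0.103) and 1.01 ± 0.22 relative to the median gene (adjusted p = 0.000339). Without the KO library of day 10 it was 0.55 and called. Sex and genotype cannot be told apart here. Hcfc1 itself differed, by -1.37 ± 0.31 and -0.77 ± 0.24.

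The factors also varied together between livers. Over 25 WT livers, relative to the median gene, Foxa2 went with Onecut1 (Pearson's r = 0.76, Spearman's rho = 0.67, permutation p = 2e-05 and 0.00036, adjusted p = 0.0012 and 0.0112 over 72 relations) and with Foxa1 (r = 0.69, rho = 0.66, adjusted p = 0.0012 and 0.0112). It went against Prox1 (r = -0.73, rho = -0.71, adjusted p = 0.0012 and 0.0036). These held without the 2 livers farthest from the median of the first gene (r = 0.69, 0.62 and -0.72) and within the B_1 and B_2 libraries (r = 0.75 and 0.70, 0.67 and 0.78, -0.57 and -0.77). In 23 KO livers of days 0 to 12, a set chosen after days 13 and 14 were seen to stand apart, the same pairs had r = 0.30, 0.44 and -0.02 (adjusted p = 0.392, 0.133 and 0.970), and the difference between genotypes was not tested. In those KO livers Cebpa went with Nr5a2 (r = 0.70, rho = 0.68, adjusted p = 0.00486 and 0.0112, and r = 0.60 without the 2 farthest). The livers of 1 series differ in day, so that these relations include shared change over time.

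**Figure D5:**
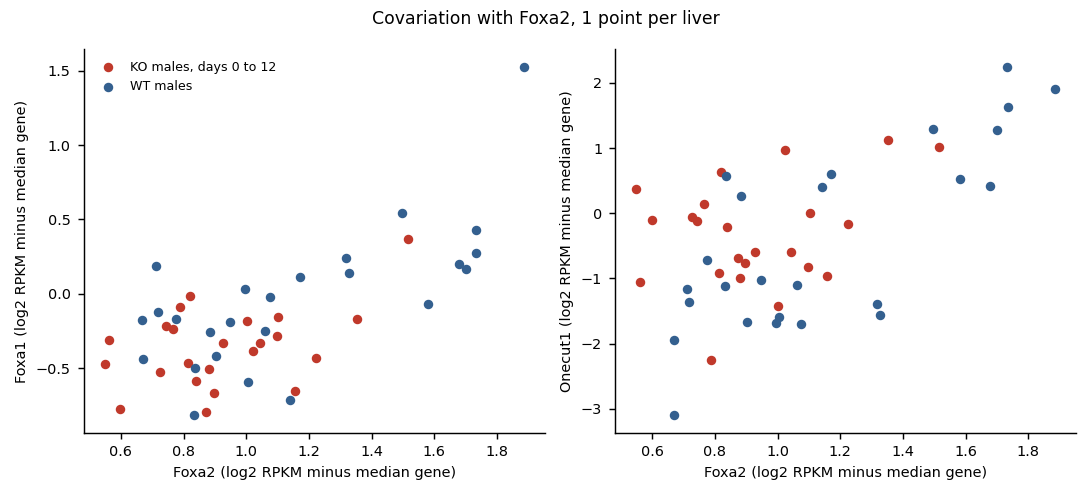
Foxa1 and Onecut1 against Foxa2 in each liver (log2 RPKM minus the library's median gene), for KO males of days 0 to 12 and WT males of all days. In WT males r is 0.69 for Foxa1 and 0.76 for Onecut1, and in KO males it is 0.44 and 0.30.

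The genes most like each factor in pattern were named from the correlation over the 30 means of genotype and day in males, which share library and depth. Onecut1 was most like Socs2, an inhibitor of growth hormone signalling (r = 0.77, and 0.80 over 51 single livers), then Zfp809 and 5830415F09Rik. Cebpa was most like Cyp2d26, a cytochrome P450, Tmem220 and Slc25a13, the mitochondrial aspartate-glutamate carrier (r = 0.96 each). Hnf4a was most like Mavs, C4bp and Gjb2 (r = 0.92, 0.92 and 0.91), and Nr5a2 most like Sox6, Pcdh1 and Tesk2 (r = 0.90 each). For Foxa3 the leading genes were Exosc3, Mrpl50 and Cldn14 (r = 0.84, 0.82 and 0.81), for Cebpb Orm1, Il13ra1 and Tifa (r = 0.79, 0.78 and 0.78), and for Prox1 Snw1, Bcor and Sf3a1 (r = 0.77, 0.76 and 0.76). For Foxa2 they were Phlda1, Acot13 and Sult1d1 (r = 0.71, 0.69 and 0.69), and for Foxa1 Cmtm4, March8 and Bend7 (r = 0.69, 0.66 and 0.66).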

How the data were processed

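Per the labels' protocols, poly(A) RNA of single livers was made into stranded libraries and sequenced as single-end reads of 50 nucleotides. The submitters' processing notes name mm9, TopHat2 2.0.13, Bowtie 1.1.2 and edgeR. The authors deposited log2 RPKM values, with a constant of 8.90e-05 added, for 15616 genes; 5.02% of values are listed at 0. Whole reads were recovered for 99.1% of the values of 845 weak genes (within 0.02 reads), which gave the depth estimates, with a median of 37.3M gene reads; depth limits cover counting error only. The mice are single animals, per the labels.

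Differences were tested with limma 3.58.1 (R 4.3.3; eBayes with trend, two-sided) on genes with log2 of at least 0 in 4 libraries (12221 in males, 12380 in all) or in 2 female libraries (11919). The 51 male libraries had 1 mean per genotype and day (21 residual degrees of freedom), so days with 1 library are assumed to vary like the others; windows are unweighted means over days. The 12 female libraries had 1 mean per window. P values were adjusted by Benjamini-Hochberg over all tested genes. Standard errors follow ± for differences. Correlations used 100000 permutations (numpy 2.4.6). Gene positions came from GENCODE for NCBIM37; all 14 promoter windows of the 9 factors matched it.

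The factors and gene lists were chosen with earlier results of these data known. Named genes are the 9 factors, Hcfc1, up to 3 genes per list with the smallest p among those called on days 10 to 14 (2 where none was called) and the 3 genes most like each factor; Alb was added. Some named genes, 1 list of targets and some promoter motifs are not reported here. The alternatives were other scales, filters, added constants, eBayes settings, windows, a term for the B mark, a replicate block and each library left out.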

Additional observations from a re-analysis of the deposited data

Results flagged for a closer look

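Of 81 groups of 4 to 8 livers tested, 1 per factor, genotype and window, 5 held a liver far from the others by Dixon's test, and chance gives about 1 in 20. All values are log2 RPKM, as deposited. Foxa1 was at 2.59 in the Het liver of day 10 (6.02 RPKM), against 4.69 to 4.86 RPKM in the other 3 Het livers of days 10 to 13. Cebpa was at 7.01 in the KO day 6 replicate 1 liver (129 RPKM), against 59.3 to 81.5 RPKM in the other 7 KO livers of days 6 to 9. Onecut1 was at 4.62 in the WT day 13 liver (24.5 RPKM), against 1.79 to 3.43 RPKM in the other 4 late WT livers. Nr5a2 was at 2.97 in the WT day 1 replicate 2 liver (7.83 RPKM), against 12.3 to 13.1 RPKM in the other 3 WT livers of days 1 to 2. Nr5a2 was also at 3.62 in the WT day 13 liver (12.3 RPKM), against 15.7 to 17.2 RPKM in the other 4 late WT livers.

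The KO minus WT difference of Cebpa on days 10 to 14 minus that on days 3 to 5 was -0.87 (log2, deposited values), by a test of the difference itself in limma.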

How the results depend on the processing

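No difference called on both scales changed sign, but some that passed on 1 scale alone did. On days 10 to 14 Hnf4a passed as higher in the deposited values (0.35, adjusted p = 0.0145 in limma). Relative to the median gene it passed as lower (-0.42, adjusted p = 0.00304). Over time in KO males, Hnf4a, Foxa3 and Nr5a2 also passed with opposite signs on the 2 scales. In the deposited values alone, the rises were 1 at day 0, 6 for days 3 to 5, 3 for days 6 to 9, 5 for days 10 to 14, 8 over time in KO males, 5 in WT males and 2 in Het females, and 1 fell in the Het minus KO change. Relative to the median gene alone, 3 fell on days 10 to 14, 4 over time in KO males, 1 in WT males, 2 in Het females and 5 between days 3 to 5 and 10 to 14 (KO minus WT), 1 rose in the Het minus KO change and 7 kept their late level. With quantile normalization 1 rose on days 1 to 2, 1 fell on days 6 to 9, 3 on days 10 to 14, 3 over time in KO males, 1 in WT males and 4 between windows, 1 rose in the Het minus KO change and 7 kept their late level. With equal summed RPKM, chosen after seeing the data, 1 rose on day 0, 3 rose on days 6 to 9, 1 rose and 1 fell on days 10 to 14, 5 rose and 1 fell over time in KO males, 3 rose in WT males, 2 fell between windows, 1 rose in the Het minus KO change and 7 kept their late level. On days 1 to 2, 1 rose with no filter, with eBayes without trend or robust, or with the libraries compared alone. The libraries compared alone gave 1 rise over time in KO males and 0 in WT males, and the B mark as a term gave 1 in KO males. Late days 10 to 12 gave 1 rise. Late days 13 to 14, chosen after seeing the data, gave 1 fall, 0 rises in WT males, 2 falls between windows and 0 kept. Within a factor of 1.5, the factors that kept their level numbered 2 (day 0), 2 (days 1 to 2), 1 (days 3 to 5) and 0 (days 10 to 14). The cause of these shifts was not tested.

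Leaving out 1 library gave 0 to 1 rises at day 0, in the window of days 1 to 2, in WT males and in the Het minus KO change, and 0 to 1 falls on days 10 to 14. The counts kept were 3 to 5, 5 to 6, 4 to 6, 6 to 7 and 3 to 5 over the windows. The count of rises stayed at 3 on days 3 to 5 and 2 on days 6 to 9. Across settings other than libraries left out, all genes called ranged over 0 to 21 on day 0, 996 to 2253, 4148 to 6971, 6166 to 8105 and 5003 to 10122 in the later windows, 4226 to 10832 over time in KO males, 1049 to 9564 in WT males and 794 to 8437 in Het females, 3228 to 7449 between windows and 3136 to 6607 in the Het minus KO change. Same-numbered KO and WT livers deviated together at over 0.1 on 4 of 10 days, with the highest correlation, 0.29, on day 3. On most days with 2 livers per genotype, replicate 1 was B_1 and replicate 2 was B_2 in both genotypes. The numbers thus partly follow the B mark, and the main tests did not pair livers by number. With the replicate block 2 factors fell between windows, the added one being Prox1 (-0.42, adjusted p = 0.0452 in limma). The lowest value of any factor, for Onecut1, rests on an estimated 47.7 reads.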
